A study of Homo sapiens with 11 samples.

Results

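Tetraspanins are small membrane proteins that cross the membrane several times and gather integrins, proteases and signalling receptors into patches called tetraspanin-enriched microdomains. They are known for roles in cell adhesion, in migration and in the loading of exosomes, the vesicles that form inside late endosomes. CD82, also called KAI1, is known as a suppressor of metastasis, and TSPAN4 is known for building migrasomes, the vesicle-bearing structures on the retraction fibres of migrating cells. The 10 genes described here were chosen by symbol: TSPAN3, TSPAN4, TSPAN9, TSPAN14, TSPAN15, CD9, CD63, CD81, CD82 and CD151. Each symbol matched 1 row of a table of 45965 genes, and all 10 were among the 16324 genes with enough counts to test. TSPAN4 and CD82 were singled out because their values with R72 and P72 were already known, so for these 2 genes the R72 over P72 differences, and how these differ between the hotspots, are given as a description, with no test.

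The 11 libraries held 3′ tags of messenger RNA from H1299, a human non-small cell lung carcinoma line that lacks endogenous p53. All cells had received 5 µg of a construct and then 14 days of neomycin selection (800 µg per ml), and every library therefore carries a mutant p53; there was no library of untransfected cells. The constructs held the hotspot mutation R175H or R273H, each on the proline (P72) or the arginine (R72) form of the common codon 72 polymorphism. There were 3 libraries of R175H P72, 3 of R175H R72, 4 of R273H P72 and 1 of R273H R72. The labels give batch b1 to 4 libraries, replicates 2, 3 and 4 of R273H P72 with replicate 1 of R175H R72, and batch b2 to the other 7, without saying what the batches are. The labels also do not say whether replicates came from separate cultures or separately selected lines, so the p-values measure only the spread between these libraries, which may be technical.

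Totals ran from 8346926 to 12829560 estimated counts per library. Levels are given in CPM, counts relative to the TMM-scaled library total. A 3′ tag library gives about one tag per transcript whatever its length, so CPM values of different genes were set side by side without division by length. Of the lung carcinoma markers, KRT8 and KRT18 averaged 273.6 and 850.1 CPM and VIM 1249 CPM, while CDH1, EPCAM and KRT19 lay below 1 CPM in every library. NKX2-1, a lung lineage factor, reached at most 1.585 CPM and SFTPC was at 0 in all libraries. Markers of other cell types were low: the summed level of 6 leukocyte genes was 1.478 to 7.449 CPM, of 6 fibroblast genes 1.789 to 6.569 CPM and of 4 endothelial genes 0.504 to 1.48 CPM. CD3E, COL1A2, LUM and CDH5 had no count in any library.

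Within the family of 33 tetraspanins, CD63, the lysosomal and exosomal member, held most of the tags. CD63 lay between 2004 and 2960 CPM and ranked 29 among all tested genes by mean level. It made up 63.03% to 69.92% of the summed CPM of the family, and the 10 genes together made up 90.95% to 93.6%. CD9, which gathers integrins and immunoglobulin-family partners, averaged 206.1 CPM but ran from 46.1 to 631 CPM. CD151, the partner of laminin-binding integrins, averaged 155.2 CPM, CD81, a partner of immunoglobulin-family proteins, 144.8 CPM and CD82 138.1 CPM. TSPAN4 averaged 107.4 and TSPAN3 97.86 CPM. TSPAN9 averaged 35.88 CPM, TSPAN14 32.16 CPM and TSPAN15 23.69 CPM; the last 2 belong to the group that escorts the protease ADAM10 out of the endoplasmic reticulum. CD151, CD81 and CD82 overlapped in their ranges over the libraries, as did TSPAN4 with TSPAN3 and TSPAN9 with TSPAN14, so the order of these neighbours is not fixed by the data.

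**Figure D1:**
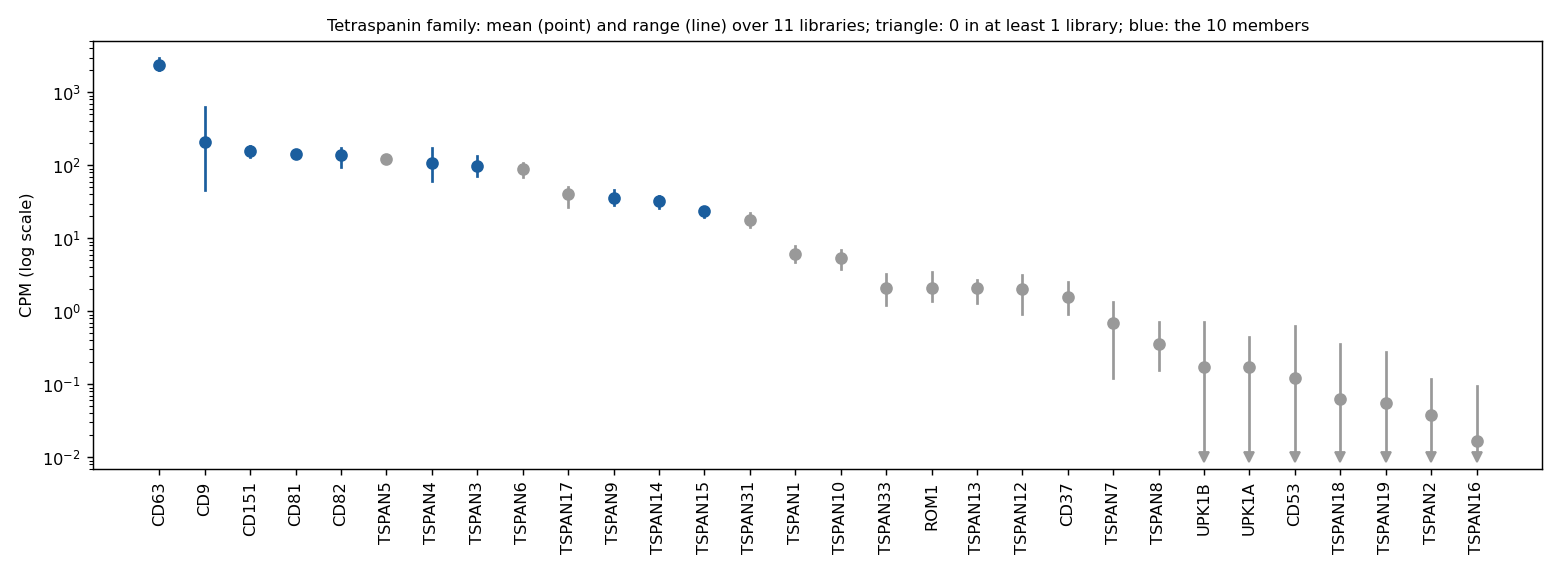
Mean level (point) and range over the 11 libraries (line) of each tetraspanin gene with at least 1 count, in CPM on a log axis; blue marks the 10 genes described here and a triangle marks a gene with 0 in at least 1 library. CD63 stands highest at a mean of 2383 CPM, and the CD9 line, from 46.1 to 631 CPM, is the longest among the blue genes.

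Of the 23 other tetraspanins 12 had enough counts to test and 11 did not. TSPAN5, at a mean of 120.4 CPM, and TSPAN6, at 89.74 CPM, were as abundant as several of the 10. TSPAN17 averaged 39.88 and TSPAN31 17.87 CPM; TSPAN31 shares exonic sequence with the more abundant CDK4 on the other strand. TSPAN1, TSPAN10, TSPAN33, ROM1, TSPAN13, TSPAN12, CD37 and TSPAN7 were tested at means of 0.685 to 6.045 CPM. Among those not tested, TSPAN11, TSPAN32 and PRPH2 had 0 counts in all libraries, and CD53, a leukocyte tetraspanin, had 13 counts in all.

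CD151 and TSPAN4 are close neighbours, 2976 bases apart. On hg38 chromosome 11 lie CD151 (ENSG00000177697, 832843 to 839831), TSPAN4 (ENSG00000214063, 842808 to 867116), CD81 (ENSG00000110651, 2376177 to 2397419) and CD82 (ENSG00000085117, 44564427 to 44620363), all on the plus strand. On chromosome 12 lie TSPAN9 (ENSG00000011105, 3077355 to 3286564), CD9 (ENSG00000010278, 6199715 to 6238271) and CD63 (ENSG00000135404, 55725323 to 55729707). TSPAN15 (ENSG00000099282, 69451473 to 69507669) and TSPAN14 (ENSG00000108219, 80454166 to 80533123) are on chromosome 10, and TSPAN3 (ENSG00000140391, 77041404 to 77083984) is on chromosome 15. CD151 shares exonic sequence with POLR2L on the other strand, a gene with 34259 counts over all libraries against 17039 for CD151, and whether the counting was stranded is not stated in the labels or notes. The antisense neighbours of CD63, TSPAN14, CD81, CD82 and TSPAN3 had 320, 10, 1, 0 and 0 counts. The GC content of the last 500 nucleotides of the transcripts, the stretch that a 3′ tag reads, ran from 43.89% for TSPAN3 and 47.61% for CD9 to 61.63% for CD151 and 64.32% for TSPAN4.

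**Figure D2:**
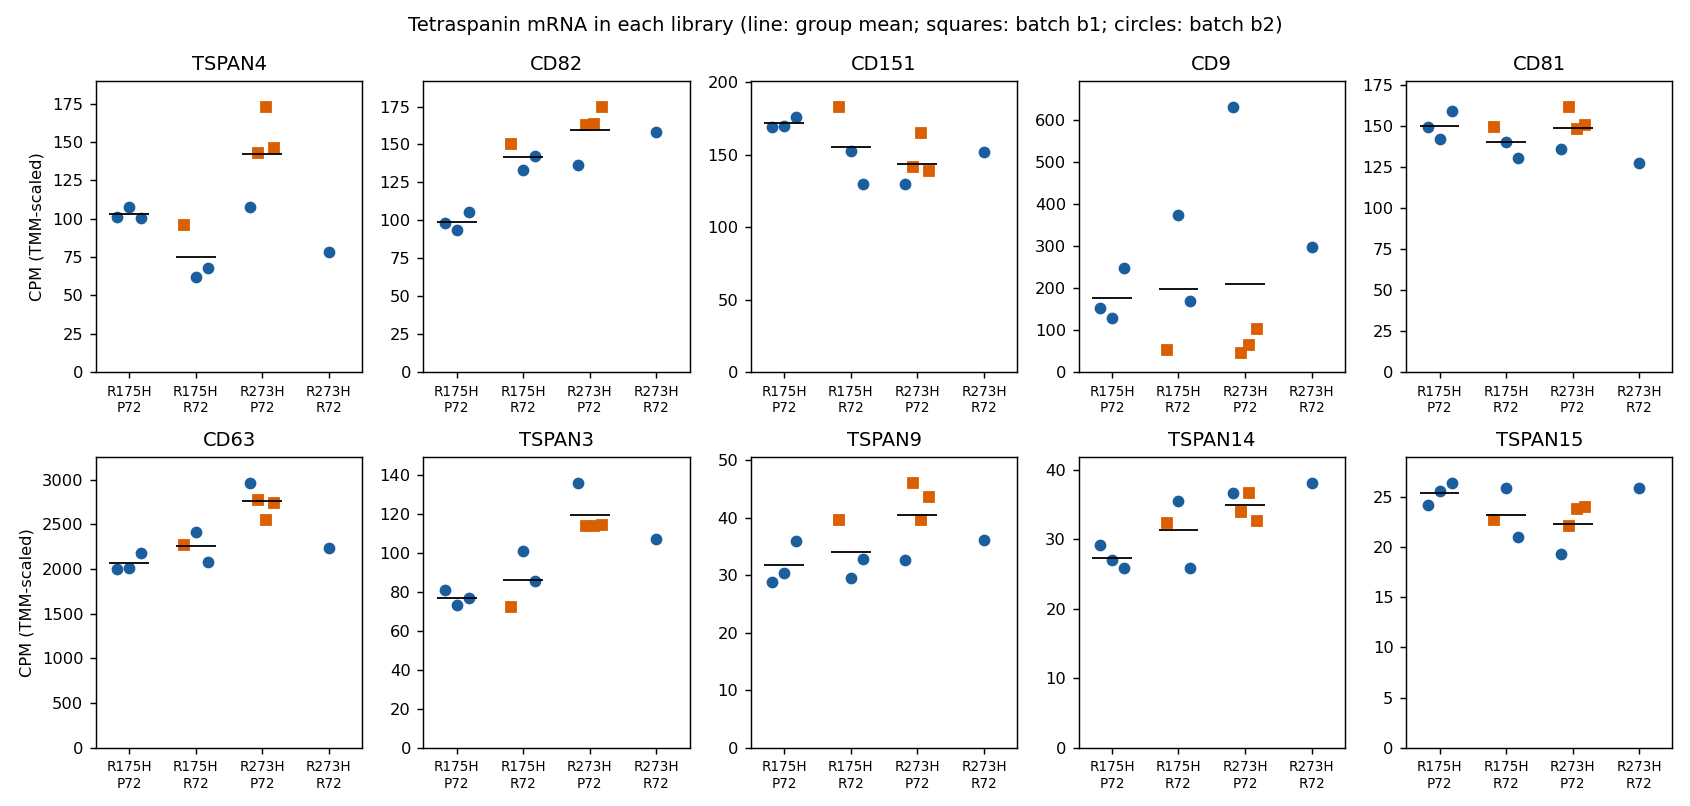
Level of each of the 10 genes in each library in CPM (vertical axis from 0), by group; squares are batch b1, circles batch b2, and the line is the group mean. CD82 sits at 93.46 to 105.7 CPM in R175H P72 and at 133.4 CPM or more in all other libraries, and the TSPAN4 points of R72 lie below those of P72 of the same hotspot.

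TSPAN4 was lower in every R72 library than in every P72 library of the same hotspot mutant. In R175H P72 it measured 101, 107.3 and 100.4 CPM in replicates 1, 2 and 4, and in R175H R72 95.88, 61.71 and 67.58 CPM. In R273H P72 it measured 107.8, 142.6, 172.5 and 145.9 CPM in replicates 1 to 4, against 78.48 CPM in the single R273H R72 library. In these bulk libraries fewer cells with the transcript and less transcript per cell cannot be told apart. The groups did not overlap within a hotspot, but the R175H R72 library of batch b1 came close to the P72 libraries of its hotspot. Within batch b2 the 4 P72 libraries lay between 100.4 and 107.8 CPM and the 3 R72 libraries between 61.71 and 78.48 CPM. Within batch b1 the 1 R72 library was at 95.88 CPM and the 3 P72 libraries were at 142.6 to 172.5 CPM, all of them R273H. The fit put R72 over P72 at a log2 fold change of -0.66 (SE 0.09) on R175H and -0.44 (SE 0.14) on R273H. In batch b2 alone the R175H value was -0.67 (SE 0.10). The R273H value there was -0.46, from 1 R72 library against 1 P72 library. Without a batch term the R273H value was -0.86 (SE 0.25). Removal of each library's trend with GC content gave -0.46 (SE 0.09) and -0.47 (SE 0.13).

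The R72 value of TSPAN4 on R273H minus that on R175H was 0.22 (SE 0.18). It was -0.01 after the GC correction and -0.40 without a batch term. Between the hotspots, in libraries that the choice of TSPAN4 also drew on, the gene did not pass: the log2 fold change of R273H over R175H on P72 was 0.05 (SE 0.10, adjusted p = 0.815), and it was 0.465 (SE 0.16, adjusted p = 0.0712) without a batch term and 0.28 (SE 0.10, adjusted p = 0.0663) after the GC correction. The batch term was itself large for this gene, -0.54 for b2 over b1 (SE 0.09, adjusted p = 0.000725), where 9.21% of all genes tested passed. R273H P72 replicate 1, the one library of its group in b2, was the lowest of that group for TSPAN4, and R175H R72 replicate 1, the one of its group in b1, was the highest.

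CD82 was low in one group of the 4. It measured 98.17, 93.46 and 105.7 CPM in R175H P72, and 150, 133.4 and 142.6 CPM in R175H R72. In R273H P72 it measured 136.6, 162.9, 163.5 and 174.4 CPM, and 158.5 CPM in R273H R72. The R175H P72 libraries overlapped with none of the other 8, while the single R273H R72 library lay inside the range of R273H P72. On the log2 scale R72 over P72 came to 0.45 (SE 0.09) on R175H, 0.48 (SE 0.09) in batch b2 alone and 0.54 (SE 0.09) after the GC correction. On R273H it was 0.16 (SE 0.13), -0.01 (SE 0.14) without a batch term and 0.03 without R273H P72 replicate 1, the one P72 library of that hotspot in batch b2. The value on R273H minus that on R175H was -0.29 (SE 0.16).

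The hotspot comparison of CD82 on P72 has the same 3 low R175H P72 libraries as the R72 values that chose the gene, so it is not independent of that choice. On P72 the gene was 1.435-fold higher in R273H than in R175H (log2 fold change 0.52, SE 0.10, adjusted p = 0.00107, edgeR quasi-likelihood test, 4 against 3 libraries). In batch b2 alone the CD82 value was 0.46, from 1 R273H P72 library, replicate 1, against 3 of R175H P72. The gene stayed called whichever library was left out, with values from 0.46 to 0.63. These fits kept most of the same low R175H P72 libraries, so they are not independent of the choice either. On R72 the hotspot value was 0.23 (SE 0.12, adjusted p = 1).

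Of the 10 genes 3 were higher and 1 was lower in R273H than in R175H on P72, where 14.6% of all genes tested were called, 6.95% higher and 7.6% lower. The 3 include CD82, whose hotspot value is not independent of its choice. Without TSPAN4 and CD82, 2 of the remaining 8 were higher and 1 was lower. The median log2 fold change of the 10 was 0.21, against 0.003 over all genes tested. TSPAN3, a tetraspanin of broad expression, measured 81.34, 73.36 and 76.79 CPM in R175H P72 and 136, 114, 113.9 and 114.4 CPM in R273H P72. The groups did not overlap, and TSPAN3 was higher in R273H by 1.812-fold (log2 0.86, SE 0.10, adjusted p = 2e-05). It stayed called whichever library was left out, with values from 0.81 to 0.94. In batch b2 alone the TSPAN3 value was 0.82. It came from 1 R273H P72 library, replicate 1 at 136 CPM, against 3 of R175H P72.

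CD63 measured 2004, 2012 and 2181 CPM in R175H P72 and 2960, 2770, 2550 and 2741 CPM in R273H P72, again without overlap. Its level in R273H was 1.379-fold that in R175H (log2 value 0.46, SE 0.10, adjusted p = 0.00309). In batch b2 alone the value was 0.52, from 1 R273H P72 library, replicate 1, against 3 of R175H P72. Without R273H P72 replicate 1 the value was 0.37 (SE 0.15) and the call was lost (adjusted p = 0.15).

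CD151 was the 1 gene of the 10 that was lower in R273H on P72. It measured 169.2, 170.1 and 175.7 CPM in R175H P72 and 129.6, 141.2, 165.1 and 138.8 CPM in R273H P72, without overlap, and was lower in R273H by 1.381-fold (log2 value -0.47, SE 0.11, adjusted p = 0.00452). POLR2L, which overlaps CD151 on the other strand, had a value of -0.41 (SE 0.09, adjusted p = 0.00433) in the same comparison, and its part in the CD151 value was not tested. The CD151 call was lost without a batch term (-0.26, adjusted p = 0.121) and after the GC correction (-0.30, adjusted p = 0.0673). In batch b2 alone, with 1 R273H P72 library, the CD151 value was -0.41 and did not pass.

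The other 6 did not pass in the hotspot comparison on P72. TSPAN14 measured 25.8 to 29.23 CPM in R175H P72 and 32.66 to 36.68 CPM in R273H P72 (log2 fold change 0.37, SE 0.14, adjusted p = 0.0698). It passed with no low-count filter, with a filter at 10 CPM, without a batch term and without R175H R72 replicate 4, with adjusted p-values of 0.0423, 0.0388, 0.0438 and 0.0194. CD81 lay between 127.1 and 161.2 CPM over all libraries, the smallest ratio of highest to lowest among the 10 (1.268), and its hotspot value was -0.13 (SE 0.10, 95% interval -0.32 to 0.06, adjusted p = 0.399). TSPAN9 had 0.06 (SE 0.13, adjusted p = 0.816) and TSPAN15 -0.29 (SE 0.14, adjusted p = 0.198). CD9 had a fitted value of 1.61 with an SE of 0.53 (adjusted p = 0.103), while DESeq2, which called 18% of the 11890 genes with an adjusted p, gave 1.59 with an adjusted p of 0.031. Without a batch term the CD9 value was 0.27 (SE 1.06, adjusted p = 0.902).

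**Figure D3:**
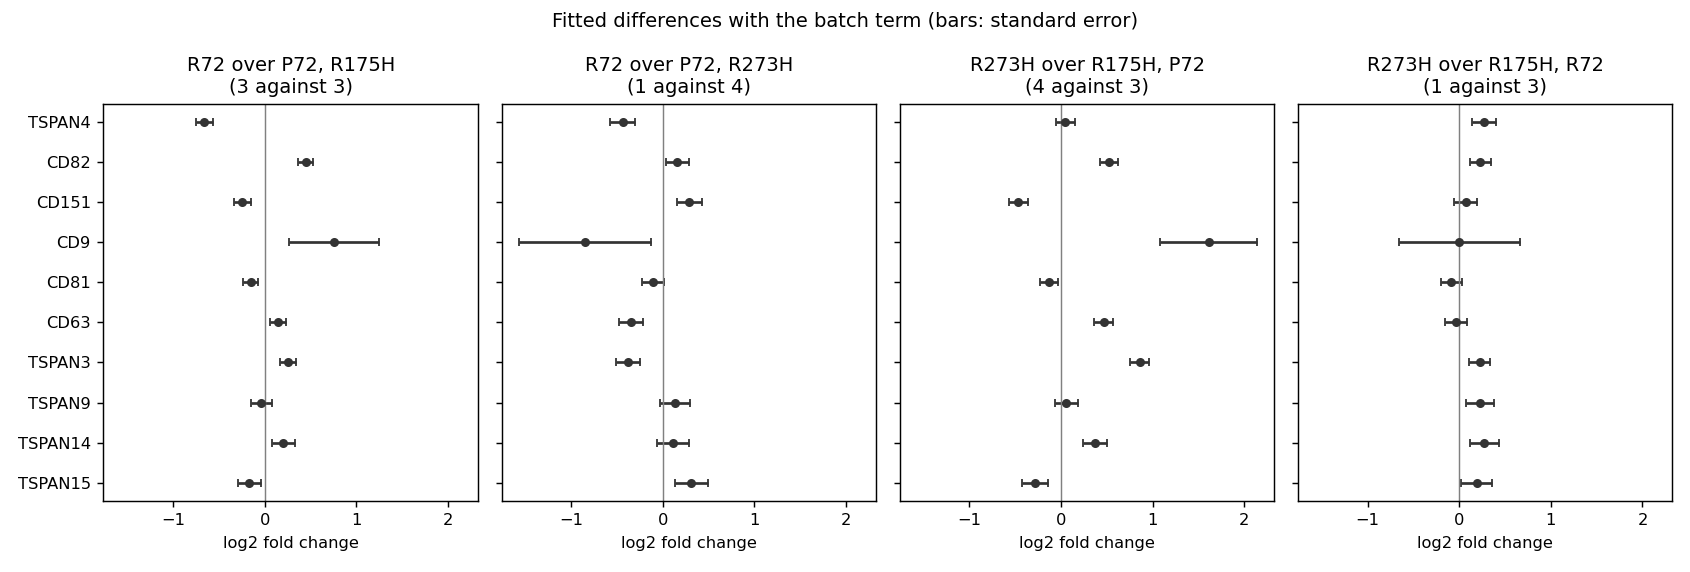
Fitted log2 fold change of each of the 10 genes with its standard error in 4 comparisons, from the model of the 4 groups and batch; the number of libraries on each side stands above each panel. TSPAN3, CD82 and CD63 lie to the right of 0 and CD151 to the left in R273H over R175H on P72, and the CD9 bars are the widest in every panel.

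Outside TSPAN4 and CD82, the remaining 8 genes had 0 calls for R72 over P72 on R175H by edgeR (2 at an unadjusted p under 0.05, and 0 called by DESeq2), where 1.13% of all genes tested were called. By the same edgeR test 2223 of all 16324 genes tested had an unadjusted p under 0.05. TSPAN3 had a log2 fold change of 0.26 (SE 0.09, adjusted p = 0.17) and CD151 -0.25 (SE 0.09, adjusted p = 0.22). TSPAN3 measured 72.27, 101.2 and 85.7 CPM in R175H R72 and so overlapped with R175H P72. CD151 measured 182.6, 152.9 and 130.1 CPM in R175H R72, on both sides of its R175H P72 libraries. CD63 (0.15, SE 0.09), CD81 (-0.15, SE 0.08), TSPAN14 (0.20, SE 0.12), TSPAN15 (-0.17, SE 0.12) and TSPAN9 (-0.04, SE 0.11) also did not pass, with adjusted p-values of 0.439 to 0.928. The 95% intervals of these 5 reached at most 0.44 in size.

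On R273H the spread of the single R72 library was taken to be that of the other groups. The remaining 8 genes had 0 calls by edgeR (3 at an unadjusted p under 0.05; DESeq2 called 0 and gave no adjusted p for TSPAN9, TSPAN14 and TSPAN15), and 0% of all genes tested were called. TSPAN3, at 107.5 CPM, lay just below the lowest R273H P72 library (log2 fold change -0.38, SE 0.13, adjusted p = 0.408). CD63, at 2237 CPM, lay below all 4 R273H P72 libraries (-0.35, SE 0.13, adjusted p = 0.489). CD151, at 152 CPM, lay within their range (0.29, SE 0.14, adjusted p = 0.629).

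The difference between the R72 values on R273H and on R175H was called by edgeR for 0 of 8 genes, TSPAN4 and CD82 left out. Of all genes tested 0.0306% were called. An unadjusted p under 0.05 was found for 3 of the 8 and for 1669 of all 16324 genes tested. Those 3 were TSPAN3 (-0.64, SE 0.17, adjusted p = 0.18), CD63 (-0.50, SE 0.17, adjusted p = 0.28) and CD151 (0.54, SE 0.18, adjusted p = 0.253). DESeq2 called TSPAN3 (-0.65, adjusted p = 0.0291) and CD63 (-0.51, adjusted p = 0.0439), and 3.21% of the 4297 genes that kept an adjusted p after its filtering, which left out TSPAN9, TSPAN14 and TSPAN15. Over both mutants, with 1 R72 effect fitted, 0 of the 8 were called by edgeR or by DESeq2. Of all genes tested edgeR called 0.214%. By edgeR 1 of the 8, CD81 (-0.14, SE 0.07), had an unadjusted p under 0.05, as did 1736 of all 16324 genes tested. Between R273H and R175H on R72, 1 against 3 libraries, 0 of the 10 were called by edgeR or by DESeq2. Of all genes tested edgeR called 0.0429%. By edgeR 1 of the 10, TSPAN4 (0.27, SE 0.13), had an unadjusted p under 0.05, as did 754 of all 16324 genes tested. TSPAN4 was chosen from values in these same R72 libraries, so this value is not independent of that choice.

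CD9 varied more between libraries than any other of the 10, and its levels in the batches did not overlap. It measured 51.74 CPM in R175H R72 replicate 1 and 46.1, 63.67 and 102.6 CPM in R273H P72 replicates 2, 3 and 4, which are the 4 libraries of batch b1. In batch b2 it measured 153.2, 127.8 and 248.2 CPM in R175H P72, 375.6 and 168.6 CPM in R175H R72, 631 CPM in R273H P72 replicate 1 and 299 CPM in R273H R72. In both groups that span the batches each b2 library was above each b1 library. The fitted batch term was 7.096-fold higher in b2 (log2 fold change 2.83, SE 0.47, adjusted p = 0.0161); this test was chosen after the values were seen. The SD of its log2 CPM over the 11 libraries was 1.21, at the 99.86 percentile of the 8968 genes averaging 10 CPM or more, whose median SD was 0.18. With this spread CD9 had wide intervals in the construct comparisons: for R72 over P72 on R175H the log2 fold change was 0.76 (95% interval -0.20 to 1.72, adjusted p = 0.577) and on R273H -0.85 (95% interval -2.27 to 0.56, adjusted p = 0.856). Both values leaned on single libraries, with 0.40 on R175H without R175H R72 replicate 2, 1.17 there without R175H R72 replicate 4, and -0.33 on R273H without R273H P72 replicate 1. Without a batch term they were 0.17 and 0.50.

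The batch term was called for 4 of the 10 genes, 2 higher and 2 lower in b2, where 9.21% of all genes tested were called, 5.61% higher and 3.6% lower. Beside CD9 and TSPAN4 these were TSPAN3 (0.31, SE 0.09, adjusted p = 0.0266) and TSPAN9 (-0.38, SE 0.11, adjusted p = 0.0321). TSPAN9 lay between 39.52 and 45.98 CPM in b1 and between 28.73 and 36.11 CPM in b2, without overlap. In the other 6 genes the batch values ran from -0.28 (CD151) to 0.07 (CD63). Because all R175H P72 libraries were of b2 and 3 of the 4 R273H P72 libraries of b1, the hotspot values on P72 rest on this term.

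**Figure D4:**
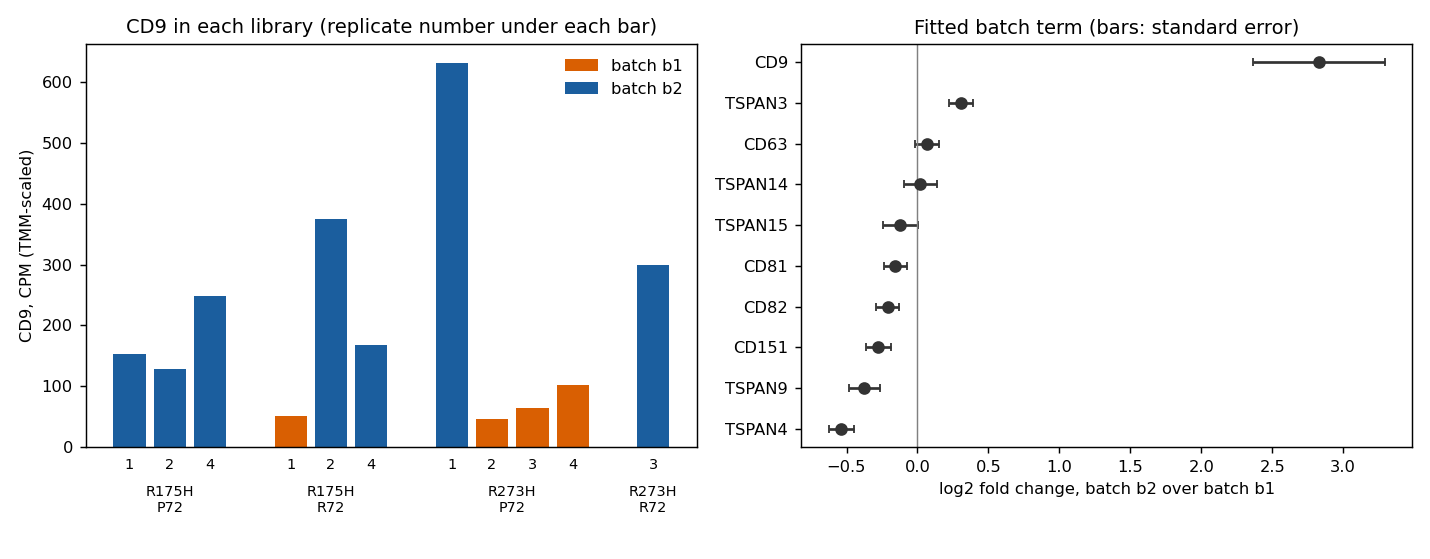
Left, CD9 in each library in CPM, with bars from 0 coloured by batch and the replicate number under each bar; right, the fitted log2 fold change of batch b2 over b1 for each of the 10 genes with its standard error. The 4 b1 bars of CD9 reach at most 102.6 CPM and the 7 b2 bars at least 127.8 CPM, and the CD9 batch term of 2.83 is the largest of the 10.

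The gene pattern nearest to that of TSPAN4 over the 11 libraries, by the root mean square difference of centred log2 CPM among 7744 genes averaging 10 CPM or more and left after clone, non-coding, antisense and pseudogene-like names (any ending in P, some coding genes with them) were dropped, was that of DGAT1 (0.15), followed by PLEC (0.17) and ENDOG (0.19), where the median gene was at 0.47. DGAT1 makes triglycerides, PLEC encodes plectin, which links the cytoskeleton to adhesions, and ENDOG is a mitochondrial nuclease. For CD82 the nearest were NIPAL3 (0.10), CD276 (0.11) and HSPA4L (0.13), where the median gene was at 0.35. CD276, an immune checkpoint protein of the cell surface, measured 47.46 to 54 CPM in R175H P72 and 60.86 to 82.93 CPM in the other 8 libraries. For CD9, added to this comparison after its values were seen, the nearest was TXN, the gene of thioredoxin, at 0.42 where the median gene was at 1.17. TXN measured 34.6 to 64.69 CPM in batch b1 and 92.12 to 178.3 CPM in batch b2.

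Among the other tetraspanins 1 of 12 passed for R72 over P72 on R175H, where 1.13% of all genes tested passed. TSPAN17, which also escorts ADAM10, fell from 42.13, 46.52 and 50.37 CPM in R175H P72 to 44.98, 29.85 and 26.65 CPM in R175H R72 (log2 fold change -0.59, SE 0.13, adjusted p = 0.0268). The groups overlapped through the b1 library, at 44.98 CPM. On P72, where 6.95% of all genes tested were higher and 7.6% lower, 1 of 12 was higher in R273H, TSPAN6 (0.50, SE 0.11, adjusted p = 0.00469), and 1 was lower, TSPAN17 (-0.42, SE 0.14, adjusted p = 0.0489). TSPAN17 overlapped between the hotspots on P72, at 42.13 to 50.37 CPM in R175H and 37.42 to 46.61 CPM in R273H. The 12 had a median log2 fold change of -0.13 with R72 on R175H and -0.01 between the hotspots on P72. TSPAN5 lay between 110 and 139.2 CPM over all libraries and passed in neither.

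The lists of partner genes were described by their counts. Of 5 laminin-binding integrin genes 1 was higher and 1 lower in R273H on P72, against 6.95% and 7.6% of all genes tested: ITGA6 (0.32, SE 0.10, adjusted p = 0.0333) and ITGA3 (-0.53, SE 0.09, adjusted p = 0.000715), both partners of CD151. ITGA3 measured 481.4 to 540.9 CPM in R175H P72 and 363.3 to 475.4 CPM in R273H P72. ITGA6 overlapped between these groups, at 717.6 to 822.8 CPM in R175H P72 and 662.5 to 1013 CPM in R273H P72. The ITGA6 group means were 785 and 780.8 CPM, so its fitted value rests on the batch term. Its highest level, 1013 CPM, was that of R273H P72 replicate 1, the one library of that group in batch b2. With R72, 0 of the 5 passed on R175H or on R273H by edgeR, and 2 and 1 had an unadjusted p under 0.05. Of all 16324 genes tested, 2223 and 1265 had such a p. The smallest p of the 5 on R273H was that of ITGA3 (0.52, SE 0.12, adjusted p = 0.149).

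Of 10 other membrane partners 8 were tested. Of these, 0 were higher and 1 was lower in R273H on P72, against 6.95% and 7.6% of all genes tested. MMP14, a membrane protease that CD63 and CD151 bind, was lower in R273H on P72 (-0.42, SE 0.10, adjusted p = 0.00577), with 302.5 to 318.2 CPM in R175H P72 and 216.1 to 267 CPM in R273H P72. PTGFRN and EPCAM, which bind CD9, had at most 1 and 9 counts in a library and were not tested. In R273H on P72, where 6.95% of all genes tested were higher and 7.6% lower, 2 of the 5 genes of the ADAM10 list were higher, CDH2 (0.50, SE 0.11, adjusted p = 0.0035) and APP (0.37, SE 0.11, adjusted p = 0.0245), both ADAM10 substrates. APP overlapped between the groups, at 294.9 to 358.7 CPM in R175H P72 and 354.1 to 398.2 CPM in R273H P72, and CDH2 did not. ADAM10 itself measured 138.5 to 464.3 CPM, was highest in R175H R72 replicate 2, and did not pass between the hotspots (0.66, SE 0.46, adjusted p = 0.42).

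Of 19 genes of exosome and late endosome machinery 18 were tested. With R72 on R175H, where 1.13% of all genes tested passed, LAMP2, a lysosomal membrane protein, was higher (0.43, SE 0.08, adjusted p = 0.012) and FLOT1, a flotillin of membrane rafts, lower (-0.41, SE 0.09, adjusted p = 0.0326). In R175H R72 replicate 1, of batch b1, LAMP2 was at 168 CPM, below its R175H P72 range of 169.3 to 190.7 CPM. The R175H R72 libraries of batch b2 had 254.8 and 229.1 CPM of LAMP2. FLOT1 in R175H R72 replicate 1 was at 104.8 CPM, inside its R175H P72 range of 104.3 to 112.3 CPM. On P72, where 14.6% of all genes tested passed, LAMP2 was higher in R273H (0.61, SE 0.10, adjusted p = 0.000259), and FLOT1 (-0.68, SE 0.11, adjusted p = 0.000248) and FLOT2 (-0.54, SE 0.13, adjusted p = 0.00566) were lower. LAMP2 overlapped between these groups, at 184.6 to 267.1 CPM in R273H P72, and was highest in replicate 1, of batch b2. FLOT2 also overlapped, at 42.13 to 53.08 CPM in R175H P72 and 35.23 to 47.06 CPM in R273H P72, while FLOT1 did not. The 18 had a median of 0.008 with R72 on R175H and -0.10 between the hotspots. Of 11 migrasome genes 1 passed between the hotspots on P72, PIGK (0.54, SE 0.18, adjusted p = 0.0491), a subunit of the enzyme that attaches lipid anchors to proteins. PIGK overlapped between the groups, at 23 to 30.95 CPM in R175H P72 and 30.11 to 33.29 CPM in R273H P72. With R72, 0 of the 11 passed on R175H by edgeR. An unadjusted p under 0.05 was found for 4 of the 11 and for 2223 of all 16324 genes tested. Among the 11, ITGB1, the integrin beta-1 subunit, had the smallest p (0.29, SE 0.09, adjusted p = 0.113). VIM, of the mesenchymal markers, was lower in R273H on P72 (-0.65, SE 0.12, adjusted p = 0.00129) and CDH2 was higher.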

How the data were processed

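The authors deposited estimated counts per Ensembl gene, 1 column per library, all whole numbers. Bowtie2, RSEM 1.2.12, DESeq2 and the build hg38 are named, without their order, per the submitters' processing notes. Per the labels' protocols, libraries were made with the Lexogen QuantSeq 3′ kit and read as single 75 bp reads.

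Columns were matched to libraries by title. Genes were kept with filterByExpr (minimum count 10, minimum total 15), leaving 16324 of 45965. Counts were rounded, which changed none, scaled by TMM and fitted with edgeR 4.0.16 in R 4.3.3 (robust quasi-likelihood). One model held the 4 groups and batch over all 11 libraries; a second held batch, hotspot and codon 72 form. The Benjamini-Hochberg adjustment ran over all 16324 genes, and 0.05 was the threshold. The 95% intervals are 1.96 SE on each side. Overlaps, coordinates and GC content came from GENCODE 29 (hg38), where 95.6% of the listed transcripts have the same version. The GC correction used natural splines with 5 degrees of freedom as offsets; 15938 tested genes had a GC value. DESeq2 1.42.0 was an alternative. The fits for R72 over both mutants, R72 on R175H and the hotspots on P72 were tested on simulated counts. These counts were drawn without a batch effect, so that test does not cover the batch term. No pair of replicates agreed within sampling noise (chi-square per degree of freedom 4.24 to 20.1).

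The 10 genes and all lists were chosen with earlier results of these data known. All 10 genes were named; from each list, those passing (at most 4 per comparison) or else the smallest p in some comparisons.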

Additional observations from a re-analysis of the deposited data

Results flagged for a closer look

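In R273H P72, the 1 group of 4 libraries, replicate 1 stood far from the other 3 for 2 of the 10 genes. CD9 measured 631 CPM there, with the nearest library at 102.6 CPM, a gap of 90.3% of the group's range. TSPAN3 measured 136 CPM there, with the nearest at 114.4 CPM, a gap of 97.7% of the range. Chance marks about 1 in 20 such groups. Replicate 1 is also the only library of that group in batch b2, and CD9 was higher in b2 in the other group that spans the batches, so for these genes the library and the batch cannot be told apart within the group.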

How the results depend on the processing

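Counts of called genes cover all 10 between the hotspots and, for R72 over P72, the 8 other than TSPAN4 and CD82. Of these counts 1 moved beyond 1.5 times under another setting: for the difference between the R72 values, DESeq2 called 2 where edgeR called 0. Leaving out each library in turn gave 3 to 5 called in R273H over R175H on P72, where all libraries gave 4 (3 without R273H P72 replicate 1, 5 without R175H R72 replicate 4), and 0 in each other comparison counted this way. CD82 with R72 on R273H turned from 0.16 to -0.0065 without a batch term; the cause was not tested. Over all genes, the count for R72 over both mutants, 35, was 22 with library totals (6 higher and 16 lower, against 6 and 29), 348 with no low-count filter, 140 with DESeq2, 2 without a batch term, 12 in b2 alone, 12 after the GC correction and 2 to 196 with a library left out. For R72 on R175H, 185 became 564, 333 and 6 with no filter, with DESeq2 and without a batch term, 51 after the GC correction (8 higher and 43 lower, against 52 and 133), and 24 to 272 with a library left out; library totals gave 65 higher and 105 lower. For R72 on R273H, 0 became 137 with no filter, 112 with DESeq2, 1 in b2 alone and 0 to 6 with a library left out. For the difference, 5 became 196, 138, 1 and 1 with no filter, with DESeq2, without a batch term and after the GC correction, and 0 to 48 with a library left out. For R273H over R175H on P72, 2376 became 866 in b2 alone and 1214 to 2463 with a library left out. On R72, 7 became 16, 2, 14 and 3 with no filter, a 10 CPM filter, DESeq2 and no batch term, and 3 to 9 with a library left out.

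With a replicate block, 4 of the 10 were called in R273H over R175H on P72 and, counted as above, 0 in the other comparisons, and over all genes 81 were called for R72 on R175H, 2 on R273H, 2 for the difference and 2 for the hotspots on R72. Same-numbered libraries deviated together in 1 of 9 pairs (correlations -0.61 to 0.25), and 2 of 10 libraries correlated best with their own number, so the numbers were not taken to pair the libraries. The single R273H R72 library limits every comparison that rests on it.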
